A study of Mus musculus with 3 samples.

Results

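The genes of endoplasmic reticulum (ER) folding and secretion were examined in mouse pro-B cells lacking Pax5, a regulator of B-lineage identity, and in wild-type pro-B cells. The 41 genes were taken from a list of ER chaperones, protein-translocation subunits, glycosylation enzymes and vesicle-coat subunits, and all 41 were found among the 27179 genes of the count table by Entrez number. RNA sequencing covered 2 Pax5-/- samples, described as independently prepared, and 1 wild-type sample. All were pro-B cells from the bone marrow of C57BL/6 mice; both Pax5-/- samples were male, and the wild-type sample was female. In every sample B220+ cells, which carry the B-lineage form of CD45, were expanded on OP9 cells, a stromal feeder line. For both Pax5-/- samples the labels add that the IgM- fraction was taken by immunomagnetic depletion at day 7; for the wild type no day and no depletion is stated. The labels give no further allele and do not say which exons the Pax5 allele lacks. Genotype, sex, the stated depletion and the stated day divide these samples in the same way, so their contributions cannot be told apart. In bulk RNA, fewer cells of a type and less RNA per cell cannot be told apart either.

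Proteins bound for the cell surface or for secretion enter the ER through the Sec61 channel, receive N-linked glycans from the oligosaccharyltransferase, fold with the help of chaperones and disulfide isomerases, and leave in vesicles coated with COPII. Proteins that fail to fold are returned to the cytosol and degraded, a process called ER-associated degradation. A shortage of folding capacity is sensed by IRE1 (encoded by Ern1), ATF6 (Atf6) and PERK (Eif2ak3), whose outputs together form the unfolded protein response. In the B lineage this system is best known from plasma cells, where it enlarges with antibody secretion. Pro-B cells make the surrogate light chain of the pre-B-cell receptor.

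The libraries held 6487846 and 6697879 counts in Pax5-/- samples 1 and 2 and 6530057 in the wild type. Pax5 itself had 1601 counts in the wild type against 417 and 551 in Pax5-/-; the part of the gene these counts come from is not known. Of the markers of pro-B cells, Vpreb1 and Igll1 (surrogate light chain), Rag1 and Dntt (recombination) were present at 192 to 787 CPM (counts scaled to TMM-adjusted library size) in all 3 samples. The list was not level: Rag1, Dntt, Il7r, Ptprc and Cd93 were called higher in Pax5-/-, and Vpreb1, Cd79a, Cd79b and Ebf1 lower, by log2 fold changes from -3.42 (Cd79a) to 1.37 (Cd93). Pax5-/- sample 1 stood apart from sample 2 in interferon-response genes: Irf7 was at 364 CPM there, 11.3 CPM in sample 2 and 43.7 CPM in the wild type. Values of both Pax5-/- samples are therefore given separately.

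Most of the ER folding and secretion genes differed little between the genotypes. Of the 41 genes, 40 passed the filter on low counts, and 6 of these (15.0%) were called different at an adjusted p under 0.05 (edgeR quasi-likelihood test, Benjamini-Hochberg adjustment over 11783 genes), against 18.1% of all genes tested. The 1 called higher in Pax5-/- was Ern1, and 9.53% of all tested genes were called higher. The 5 called lower were Eif2ak3, Syvn1, Herpud1, Dnajb11 and Creld2, and 8.55% of all tested genes were called lower. The share called was thus near that of the whole table. The median log2 fold change (Pax5-/- over wild type) was -0.05 over the 40 genes and 0.01 over all genes tested, and the median size of the change was 0.24 against 0.41. In 32 of the 40 genes (80.0%) the fitted change was smaller than 0.5 on the log2 scale, as it was in 56.9% of all tested genes. These sizes are not compared at like level. The 40 genes had a median level of 170 CPM and a median SE of 0.137, against 34.9 CPM and 0.195 over all genes tested. Together the 41 genes made up 0.942% of the counts in Pax5-/- sample 1, 0.984% in sample 2 and 1.03% in the wild type.

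**Figure D1:**
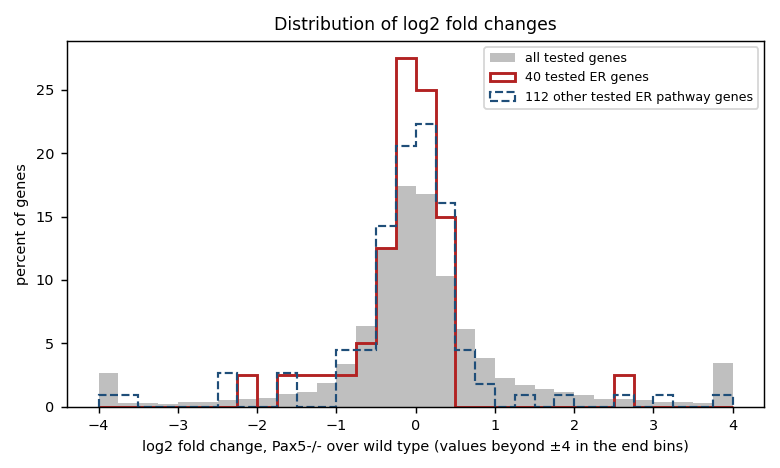
Distribution of fitted log2 fold changes (Pax5-/- over wild type, x axis) as percent of genes (y axis) for all 11783 tested genes (grey), the 40 tested ER folding and secretion genes (solid outline) and 112 other tested ER pathway genes (dashed outline). Most of the 40 genes lie within 0.5 of zero, with Ern1 alone on the far right and Eif2ak3, Herpud1 and Syvn1 on the left.

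The 3 stress sensors went in different directions. Ern1 encodes IRE1, the kinase and endoribonuclease that splices Xbp1 mRNA (Entrez 78943; chromosome 11, 106397620 to 106487796, mm10). It had 54 counts in the wild type against 300 and 392 in Pax5-/-, or 8.42 CPM against 46.3 and 57.6 CPM. Both Pax5-/- samples lay far above the wild type. The mean was 51.9 ± 8.0 CPM (SD, n = 2) and the log2 fold change 2.62 (SE 0.24, adjusted p = 0.00818, edgeR), a 6.16-fold difference. Eif2ak3 encodes PERK, the kinase that phosphorylates the translation factor eIF2alpha (Entrez 13666; chromosome 6, 70844484 to 70905241). It had 876 counts in the wild type against 163 and 233 in Pax5-/-, or 137 CPM against 25.2 and 34.2 CPM. Here both Pax5-/- samples lay below the wild type. The log2 fold change was -2.20 (SE 0.22, adjusted p = 0.0102, edgeR), and the level was 4.60-fold lower. Both calls were kept under all 9 other fits and scalings. Atf6, the membrane-bound transcription factor that is cleaved in the Golgi, was at 142 and 132 CPM against 99.0 CPM. Its log2 fold change of 0.47 (95% interval 0.07 to 0.87) was not called (adjusted p = 0.104, edgeR).

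On a scale that also corrects for gene length, CPM per kilobase, the sensors changed places. In the wild type Eif2ak3 stood at 30.4, Atf6 at 13.3 and Ern1 at 2.12 CPM per kilobase. In Pax5-/- samples 1 and 2, Atf6 stood at 19.0 and 17.7, Ern1 at 11.6 and 14.5 and Eif2ak3 at 5.60 and 7.61 CPM per kilobase. Among the 41 genes Ern1 moved from rank 40 in the wild type to rank 34 in Pax5-/-, and Eif2ak3 from rank 26 to rank 39.

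Downstream genes of these sensors came from a wider list of ER genes. Xbp1, whose spliced form is the transcription factor made by IRE1, was at 185 CPM in the wild type and at 106 and 150 CPM in Pax5-/-. Both Pax5-/- samples were below the wild type, but the log2 fold change of -0.54 (SE 0.24) was not called (adjusted p = 0.201, edgeR); gene counts do not separate spliced from unspliced Xbp1. Atf4, the transcription factor whose translation rises when eIF2alpha is phosphorylated, was at 72.5 and 79.5 CPM against 247 CPM and fell by 1.70 in log2 fold change (SE 0.14, adjusted p = 0.00692, edgeR). Ddit3, which encodes CHOP, had 28 and 32 counts against 97 and fell by 1.74 (SE 0.27, adjusted p = 0.0255, edgeR). Trib3, a pseudokinase gene induced by ATF4 and CHOP, had 29 and 31 counts against 144 and fell by 2.31 (SE 0.24, adjusted p = 0.0109, edgeR). In each of these 3 genes the Pax5-/- samples lay close together and well below the wild type. Of 16 tested genes of stress signalling in that list of 18, 6 fell, 1 rose and 9 were not called, beside 8.55% of all tested genes that fell and 9.53% that rose; the median log2 fold change was -0.66. Ppp1r15b and Atf6b were also among those that fell, and Creb3l1, with 30 and 24 counts against 3, was the 1 that rose. Chac1, a glutathione-degrading enzyme gene and ATF4 target, was named after its values were seen: it had 81 counts in the wild type against 2 and 0 in Pax5-/-, also among the 6 that fell, and the wild type exceeded the Pax5-/- pair 83.9 times (95% interval from counting error, 22.5 to 705).

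**Figure D2:**
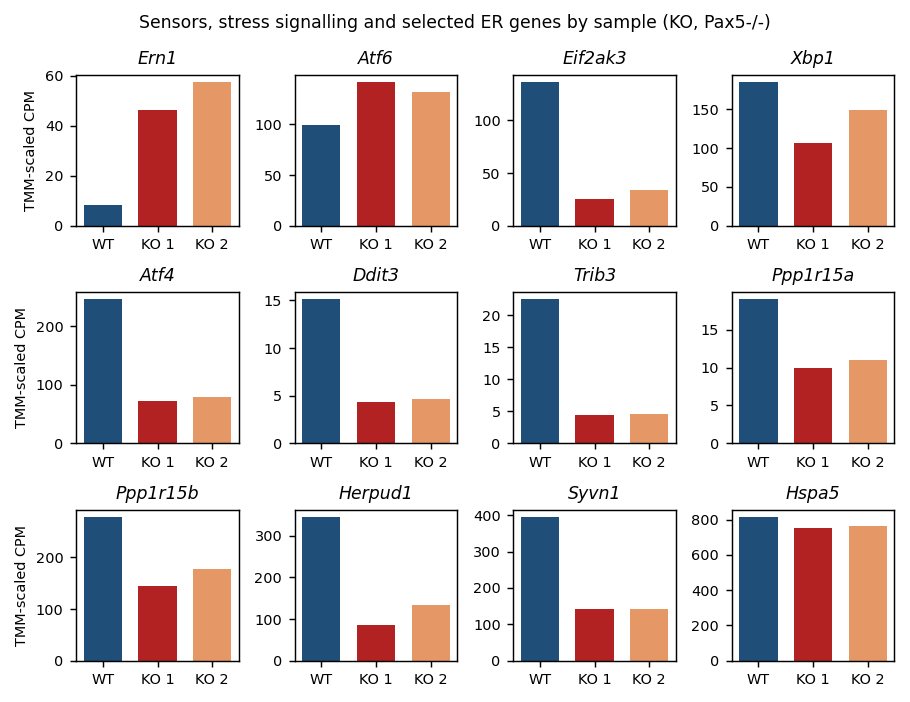
TMM-scaled CPM (y axes, each from 0) in the wild type (WT) and in Pax5-/- samples 1 and 2 (KO 1, KO 2) for the sensors, stress-signalling genes, Herpud1, Syvn1 and Hspa5, 1 bar per sample. Ern1 is higher in both Pax5-/- samples, Eif2ak3, Atf4, Ddit3, Trib3, Herpud1 and Syvn1 are lower, and Hspa5 is nearly level at 750, 762 and 816 CPM.

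Among 7 genes of ER-associated degradation, 2 fell and 5 were not called. Of all tested genes, 8.55% fell and 9.53% rose. Syvn1 encodes HRD1, the membrane ubiquitin ligase of the pathway (Entrez 74126; chromosome 19, 6046576 to 6053718). It had 2536 counts in the wild type against 919 and 966 in Pax5-/-, or 142 CPM in both Pax5-/- samples against 396 CPM. The Pax5-/- samples coincided, below the wild type. The log2 fold change was -1.48 (SE 0.11, adjusted p = 0.00616, edgeR). Herpud1 encodes a membrane protein that binds HRD1 and is a known target of the stress response (Entrez 64209; chromosome 8, 94386429 to 94395371). It had 2214 counts in the wild type against 559 and 910 in Pax5-/-, or 345 CPM against 86.3 and 134 CPM. Both samples lay below the wild type but differed from each other more than for any other tested gene of the 40. The log2 fold change was -1.65 (SE 0.28, adjusted p = 0.0302, edgeR), or -2.0 for sample 1 and -1.37 for sample 2, each against the same wild type. The calls of Syvn1 and Herpud1 were lost in an edgeR likelihood ratio test that set the biological coefficient of variation of all genes to 0.4 (adjusted p = 0.217 and 0.126).

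The other 5 genes were not called. Sel1l, the adaptor that holds HRD1 in its complex, was at 124 CPM in the wild type and at 126 and 136 CPM in Pax5-/-, with a log2 fold change of 0.09 (95% interval -0.30 to 0.48). Derl1 and Derl2, derlins of the same membrane complex, had log2 fold changes of -0.42 and -0.12. Edem1 and Edem2, lectin-like proteins that mark misfolded glycoproteins for disposal, had values of -0.28 and 0.36. These 5 genes had adjusted p from 0.142 to 0.691 (edgeR). Of 17 further genes of ER-associated degradation, among them Vcp, Os9 and Ube2j1, 0 were called by the quasi-likelihood test, DESeq2 or limma-voom, although 4 had an unadjusted p under 0.05, and their median log2 fold change was -0.02. Derl3 passed in the likelihood ratio test (adjusted p = 0.0374), and Ube2j1 with RLE scaling and with robust dispersion (adjusted p = 0.0468 and 0.0394).

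Of 9 chaperones and cochaperones, 2 fell and 7 were not called, beside 8.55% of all tested genes that fell. Dnajb11 encodes ERdj3, a J-domain partner of BiP (Entrez 67838; chromosome 16, 22857845 to 22879634). It had 1077 counts in the wild type against 530 and 624 in Pax5-/-, or 168 CPM against 81.8 and 91.7 CPM. The Pax5-/- samples were close to each other and below the wild type. The log2 fold change was -0.95 (SE 0.15, adjusted p = 0.0256, edgeR), a call lost with the coefficient of variation set to 0.4 (adjusted p = 0.747). Creld2, a secreted ER protein induced by stress (Entrez 76737; chromosome 15, 88819646 to 88826681), had 252 and 275 counts against 407, or 38.9 and 40.4 CPM against 63.5 CPM. Both samples again lay below the wild type. The log2 fold change was -0.68 (SE 0.14, adjusted p = 0.0445, edgeR), and 5 of 9 other fits and scalings lost the call.

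The most abundant chaperone genes were not called. Hspa5 encodes BiP, the ER member of the HSP70 class and the usual marker of the unfolded protein response (Entrez 14828; chromosome 2, 34772090 to 34776529). It had 5231 counts in the wild type against 4859 and 5188 in Pax5-/-, or 816 CPM against 756 ± 8.6 CPM (SD, n = 2). Its log2 fold change was -0.11 (95% interval -0.37 to 0.15, adjusted p = 0.467, edgeR). Hsp90b1, which encodes GRP94, was at 1063 and 1077 CPM against 1344 CPM, with both Pax5-/- samples below the wild type; its log2 fold change of -0.33 was not called (adjusted p = 0.0828). Hyou1, an HSP70-like nucleotide exchange factor of BiP, had a log2 fold change of -0.15, and the J-domain cochaperones Dnajb9 and Dnajc3 had values of -0.06 and 0.20. Manf, a secreted ER protein that binds BiP, had a value of -0.28. Sdf2l1, a partner of ERdj3, was at 62.4 and 82.1 CPM against 115 CPM (log2 fold change -0.68, SE 0.22) and was not called (adjusted p = 0.108). The median over the 9 genes was -0.28, and 7 of the 9 were below the wild type in both Pax5-/- samples, as were 42.9% of all tested genes. Over all 40 members, 14 were above the wild type in both Pax5-/- samples and 20 below it, against 42.3% and 42.9% of all tested genes.

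Printed here, as RefSeq (GRCm38.p6) gives them, are the promoter windows of the 4 called members that hold an ER stress element, and that of Hspa5, which also holds one and was not called. Each window runs from 250 bases before the transcription start to 50 after it, on the strand of the gene, and all 5 genes lie on the plus strand. The windows are chr8:94386179-94386478 for Herpud1, chr19:6046326-6046625 for Syvn1, chr16:22857595-22857894 for Dnajb11, chr15:88819396-88819695 for Creld2 and chr2:34771840-34772139 for Hspa5. Capitals mark the fixed letters of the element.
Herpud1: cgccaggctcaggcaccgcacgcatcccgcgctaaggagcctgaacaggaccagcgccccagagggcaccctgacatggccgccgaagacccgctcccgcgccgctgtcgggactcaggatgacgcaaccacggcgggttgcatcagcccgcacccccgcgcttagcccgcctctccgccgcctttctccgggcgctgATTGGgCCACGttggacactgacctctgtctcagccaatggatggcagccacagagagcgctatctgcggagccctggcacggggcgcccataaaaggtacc
Syvn1: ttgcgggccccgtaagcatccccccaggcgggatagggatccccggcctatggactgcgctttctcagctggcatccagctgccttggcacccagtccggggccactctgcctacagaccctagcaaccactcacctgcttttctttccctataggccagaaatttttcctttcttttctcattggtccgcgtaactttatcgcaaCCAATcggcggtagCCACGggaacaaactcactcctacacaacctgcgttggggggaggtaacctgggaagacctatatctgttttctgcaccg
Dnajb11: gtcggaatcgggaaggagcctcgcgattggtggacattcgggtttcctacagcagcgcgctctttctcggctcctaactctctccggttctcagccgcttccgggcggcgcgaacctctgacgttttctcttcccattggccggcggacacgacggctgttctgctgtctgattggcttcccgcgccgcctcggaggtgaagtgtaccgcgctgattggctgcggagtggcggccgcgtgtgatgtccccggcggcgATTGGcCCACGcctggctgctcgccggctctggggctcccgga
Creld2: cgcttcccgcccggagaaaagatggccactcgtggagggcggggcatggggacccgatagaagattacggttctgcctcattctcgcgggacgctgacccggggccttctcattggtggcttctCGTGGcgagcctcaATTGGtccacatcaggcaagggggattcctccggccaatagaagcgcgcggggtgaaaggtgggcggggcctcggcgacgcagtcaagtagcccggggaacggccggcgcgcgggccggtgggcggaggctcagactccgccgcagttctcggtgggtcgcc
Hspa5: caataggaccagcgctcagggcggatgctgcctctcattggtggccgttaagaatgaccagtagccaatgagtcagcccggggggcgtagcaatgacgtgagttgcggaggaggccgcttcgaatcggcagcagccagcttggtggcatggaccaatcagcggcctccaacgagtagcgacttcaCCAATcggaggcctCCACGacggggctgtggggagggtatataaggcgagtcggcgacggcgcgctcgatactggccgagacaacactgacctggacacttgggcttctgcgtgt
The elements are binding sequences known for ATF6 and XBP1 together with NF-Y.

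The elements were searched as exact letters on both strands. The ER stress response element (ERSE) is CCAAT and CCACG separated by 9 bases. It was found in 8 of the 35 members that have a window in the RefSeq table (22.9%) and in 0.137% of all 27025 genes with one. Such shares follow from the choice of genes and from the reference sequence, not from the counts. The second form (ERSE-II), ATTGG and CCACG separated by 1 base, was found in 2 members (5.71%) and in 0.0444% of all genes. Both forms end in CCACG, and no member window held an exact match to both. Near matches were not searched. Of the 93 other ER pathway genes with a window, 2.15% held ERSE and 1.08% ERSE-II. The element began 52 bases before the start in Herpud1, 44 in Syvn1, 126 in Creld2 (on the opposite strand) and 65 in Hspa5, and 7 bases after it in Dnajb11. Of the 10 members with either form, 4 fell and 6 were not called: Hspa5, Hsp90b1, Calr, Canx, Pdia6 and Dnajc3. Of the 24 tested members with a window and neither form, 1 fell (Eif2ak3), 1 rose (Ern1) and 22 were not called. Over all tested genes 8.55% fell and 9.53% rose. A link between the elements and the calls was not tested. The median log2 fold change was -0.29 with an element and 0.04 without. The XBP1 core TGACGTGG was found in Sec23a and Sec24d, that is in 5.71% of members and 0.714% of all genes. Its share was larger, at 8.60%, in the other ER pathway genes with a window. Of 3 spellings of the C/EBP-ATF composite element of ATF4 targets, TGATGCAA was found in Herpud1, 112 bases before the start on the opposite strand (in lower case in the window printed), and in 1.03% of all genes; TGATGAAA and TGATGCCA were in 0 members and in 1.15% and 1.10% of all genes. In the other ER pathway genes with a window, the 3 spellings were found in 2.15%, 2.15% and 0%, in the order given. A match is a description of these letters only.

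**Figure D3:**
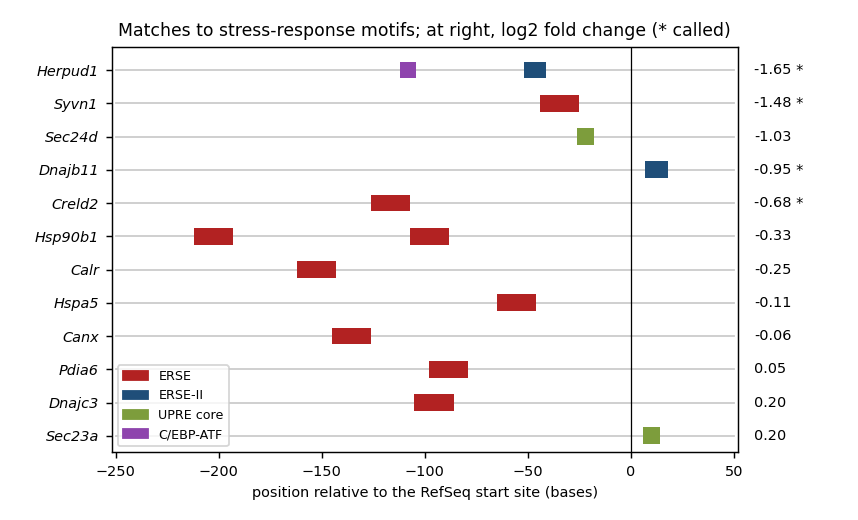
Positions (x axis, bases from the RefSeq transcription start) of exact matches to ERSE, ERSE-II, the UPRE core and the C/EBP-ATF element in the promoter windows of the 12 members with any match, ordered by log2 fold change (printed at right; asterisk, adjusted p under 0.05). The 4 called genes and Sec24d fill the top 5 places, and chaperone genes with the same element, such as Hspa5 at -0.11 and Canx at -0.06, are below them.

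None of the 7 lectin chaperones and disulfide enzymes was called by the quasi-likelihood test, DESeq2 or limma-voom (1, Pdia3, had an unadjusted p under 0.05), and all 7 had log2 fold changes under 0.5 in size. Calr and Canx encode calreticulin and calnexin, the lectins that hold newly glycosylated proteins. Calr was at 689 and 681 CPM in Pax5-/- against 814 CPM (log2 fold change -0.25), and Canx at 992 and 980 CPM against 1026 CPM (-0.06). Pdia3, the disulfide isomerase that works with them, was at 910 and 861 CPM against 726 CPM, and P4hb, the classical protein disulfide isomerase, at 365 and 399 CPM against 308 CPM. Pdia3 and P4hb thus lay above the wild type in both Pax5-/- samples, by log2 fold changes of 0.29 and 0.31, and neither was called (adjusted p = 0.134 and 0.162, edgeR). Pdia4, Pdia6 and Ero1l, an oxidase that recharges the isomerases, had log2 fold changes of 0.06, 0.05 and 0.13. The median over the 7 genes was 0.06.

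The wider list of folding enzymes held genes with much larger differences. Pdia5, another member of the disulfide isomerase family, had 5 counts in the wild type against 280 and 478 in Pax5-/-, or 0.780 CPM against 43.2 and 70.2 CPM. Its log2 fold change was 6.15 (SE 0.57, adjusted p = 0.00847, edgeR). Ero1lb, the second ER oxidase, had 31 and 56 counts against 521, or 4.78 and 8.23 CPM against 81.3 CPM, and fell by 3.63 in log2 fold change (SE 0.31, adjusted p = 0.00749, edgeR). The groups were far apart in both genes, in opposite directions. Prdx4, an ER peroxiredoxin that also oxidises isomerases, was at 56.0 and 57.1 CPM against 110 CPM and fell by 0.96 (SE 0.14, adjusted p = 0.0218); it is X-linked, and sex differs between the groups. Of 18 tested genes in that list of 19, 3 rose, 3 fell and 12 were not called, beside 9.53% and 8.55% of all tested genes that rose and fell. The others called were Mzb1 and Sdf2, which rose, and Txndc11, which fell. In GENCODE M21, exons of other genes cover 57.2% of the exon bases of Mzb1, so its counts are uncertain.

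Of the 8 members of the Sec61 channel, its partners and the TRAP complex, 7 were tested and 0 were called by the quasi-likelihood test, DESeq2 or limma-voom (2, Ssr2 and Ssr3, had an unadjusted p under 0.05), with log2 fold changes from -0.23 to 0.38. Sec61a1, the channel itself, was at 68.0 and 70.0 CPM per kilobase in Pax5-/- and 70.8 in the wild type, a log2 fold change of -0.04 (95% interval -0.37 to 0.30). Sec61b, the beta subunit, had a log2 fold change of 0.11, and Sec62 and Sec63, accessory proteins for post-translational import, had values of -0.02 and -0.23. Ssr2 and Ssr3, subunits of the translocon-associated TRAP complex, were above the wild type in both Pax5-/- samples, at 0.36 and 0.38 (adjusted p = 0.132 and 0.0931, edgeR), while Ssr1 was at -0.01. Sec61g, the gamma subunit, had 5 counts in the wild type against 9 and 4 in Pax5-/- and did not pass the filter. Of its 50-base stretches, 20.5% also occur in transcripts of 5 other genes, so reads from it may have been counted elsewhere or not at all.

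Signal recognition and signal peptidase genes, which bring chains to the channel and trim their signal sequences, were taken from the wider list. Spcs1, a noncatalytic subunit of the peptidase, had 346 counts in the wild type against 1192 and 1617 in Pax5-/-, or 54.0 CPM against 184 and 238 CPM. It rose by 1.97 in log2 fold change (SE 0.22, adjusted p = 0.0130, edgeR), with both Pax5-/- samples above the wild type. The other signal peptidase genes Spcs2, Spcs3, Sec11a and Sec11c were not called, with log2 fold changes of 0.42, 0.14, 0.11 and -0.51. Exons of the antisense gene Glt8d1 cover 16.3% of the exon bases of Spcs1, and without a stated strand setting reads of the 2 genes cannot be separated. Srp68, a protein of the signal recognition particle, rose by 0.82 (SE 0.13, adjusted p = 0.0251), and Dnajc1, an ER J-domain protein, by 0.71 (SE 0.15, adjusted p = 0.0469). Of 15 tested genes of signal recognition and signal peptidase, 2 rose and 13 were not called. Of 7 translocon partners 1 rose and 6 were not called. Among all tested genes 9.53% rose and 8.55% fell.

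The oligosaccharyltransferase genes Stt3a (catalytic subunit), Rpn1 and Ddost had log2 fold changes of 0.02, -0.23 and 0.20, and none was called by the quasi-likelihood test, DESeq2 or limma-voom (0 at an unadjusted p under 0.05). Of 15 further genes of glycosylation and glycan trimming, 0 were called by these tests, with 4 at an unadjusted p under 0.05; Uggt2 passed in the likelihood ratio test (adjusted p = 0.0478). Of the 4 COPII coat genes, Sec23a, Sec23b and Sec31a had values of 0.20, -0.27 and 0.06. Sec24d, a cargo-binding subunit, was the lowest of the 34 genes not called, with 125 counts in the wild type against 55 and 72 in Pax5-/-. Both samples were below the wild type, and its log2 fold change was -1.03 (SE 0.25, adjusted p = 0.0643, edgeR). It passed the threshold with RLE scaling, with robust dispersion estimation and in the likelihood ratio test. Of 24 tested genes of COPII, cargo receptors and ER-Golgi transport beyond these, 0 were called by the quasi-likelihood test, DESeq2 or limma-voom (3 at an unadjusted p under 0.05), and 22 had log2 fold changes under 0.5 in size. Sar1b passed with RLE scaling and with robust dispersion (adjusted p = 0.0445 and 0.0488).

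**Figure D4:**
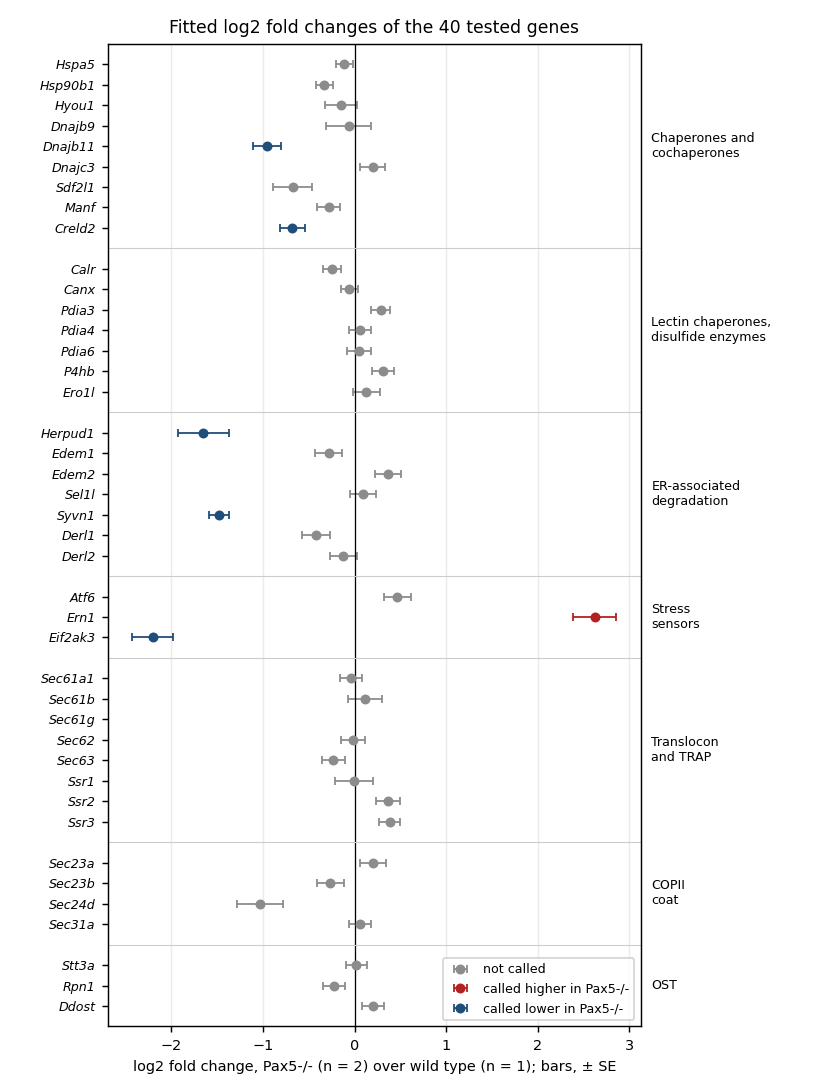
Fitted log2 fold change (x axis, Pax5-/- over wild type; bars, SE) of the 40 tested ER folding and secretion genes, ordered by role; Sec61g was not tested. Ern1 at 2.62 was called higher, and Eif2ak3, Herpud1, Syvn1, Dnajb11 and Creld2, at -2.20 to -0.68, were called lower, while translocon, oligosaccharyltransferase (OST) and lectin chaperone genes lie near 0.

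Levels per kilobase spanned a wide range among the 41 genes and kept much of their order. Hsp90b1 was the highest in every sample, at 385 and 391 CPM per kilobase in Pax5-/- and 487 in the wild type, followed by Calr at 355, 351 and 419. Hspa5, Pdia3 and Canx filled ranks 3 to 5 in both genotypes, between 228 and 344 CPM per kilobase. Hspa5 was above Pdia3 in the wild type, at 312 against 275, and below it in both Pax5-/- samples, at 287 and 291 against 344 and 326. Herpud1 and Syvn1 dropped furthest among the upper ranks, Herpud1 from rank 6 to rank 18 and Syvn1 from rank 13 to rank 23. At the lower end in the wild type were Sec24d at 5.06, Ern1 at 2.12 and Sec61g at 1.00 CPM per kilobase.

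**Figure D5:**
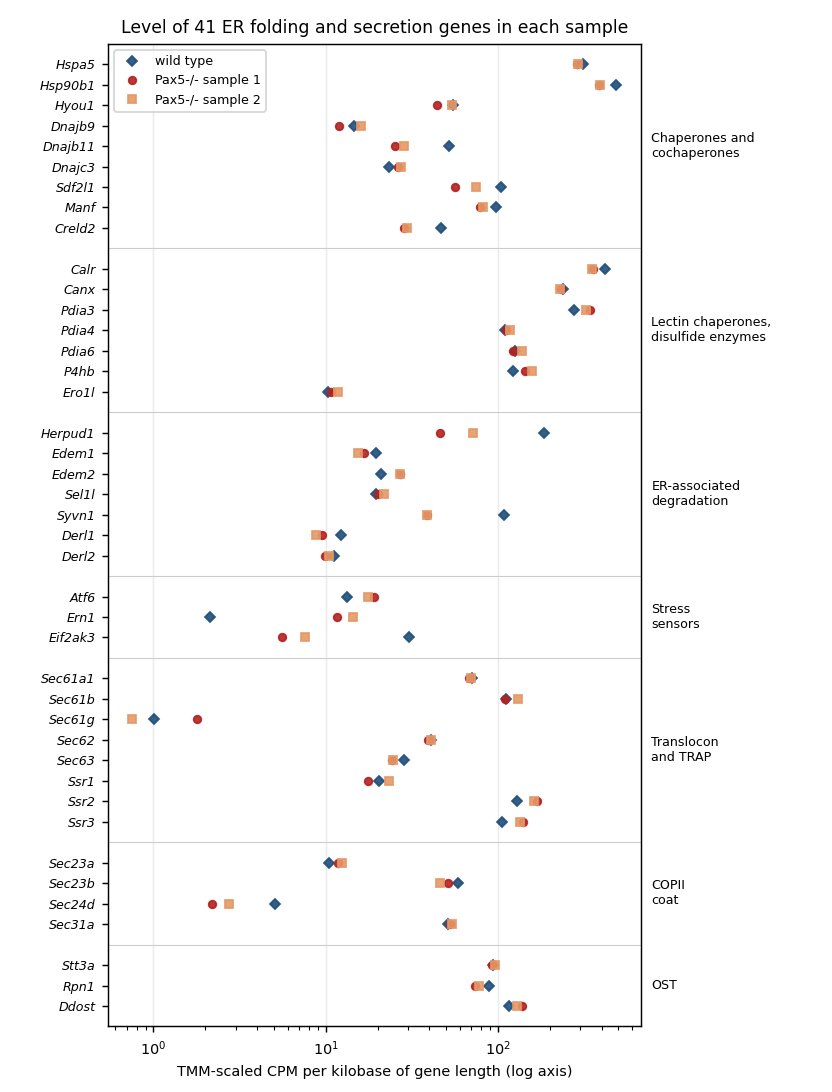
Level of each of the 41 ER folding and secretion genes in TMM-scaled CPM per kilobase of gene length (log x axis), 1 point per sample, grouped by role. The 3 samples overlap for most genes, and the wild-type diamonds stand apart at Ern1 (2.12 against 11.6 and 14.5), Eif2ak3 (30.4 against 5.60 and 7.61), Herpud1 (185 against 46.1 and 71.4) and Syvn1 (108 against 38.8 and 38.8).

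The Pax5-/- samples also differed from each other. Of the 40 tested genes, 30 (75.0%) were higher in sample 2 than in sample 1, as were 52.3% of all tested genes, and all 9 chaperones and cochaperones were among them. The gap was 0.63 on the log2 CPM scale for Herpud1, 0.44 for Eif2ak3, 0.43 for Dnajb9 and 0.40 for Ssr1 and for Sdf2l1. Counted against the wild type 1 sample at a time, 5 genes were lower by a factor of 2 or more in sample 1 (10.0% of all tested genes) and 3 in sample 2 (10.8% of all tested genes). In both samples 3 were lower by that factor, against 8.33% of all tested genes, and 1, Ern1, was higher, against 10.9%.

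Markers of other cell types differed between the samples, in no single direction. Beside each count below stand the 9.53% of all tested genes that rose and the 8.55% that fell. Of 9 plasma cell markers, 8 were tested, 2 rose and 4 fell: Jchain and Mzb1 rose, and Sdc1, Irf4, Slamf7 and Ell2 fell. Their summed level was 1077 CPM in the wild type and 2440 and 2735 CPM in Pax5-/-, of which Jchain alone gave 2.96, 1850 and 2070 CPM. Tnfrsf17, a defining receptor of plasma cells, had 1 count in Pax5-/- sample 2 and 0 in the other libraries. Xbp1 and Mzb1 stand in this list and in the ER lists. Of 13 stromal markers, 7 were tested, 1 rose (Thy1) and 1 fell (Fstl1); the summed level was 53.3 CPM in the wild type and 66.4 and 98.0 CPM in Pax5-/-, and Lum and Dcn were at 0 in every sample. Of 13 myeloid markers, 9 were tested, 3 rose and 3 fell, with a summed level of 59.9 and 72.7 CPM against 84.1 CPM. Single myeloid markers differed far more than these sums, with log2 fold changes from -10.9 to 3.78 and a median size of 3.53. Of 7 markers of plasmacytoid dendritic cells 2 rose and 1 fell, with a summed level of 1903 and 775 CPM against 1233 CPM. Within these sums Bst2 gave 787 and 126 CPM against 263 CPM. Irf7 gave 364 and 11.3 CPM against 43.7 CPM. The place of the wild type between the Pax5-/- samples rests on these genes, in which sample 1 stood apart. Of 8 erythroid and mast cell markers 5 were at 0 in every sample and 1 was tested, Cpa3, which rose. The part of these cell types in the differences of the ER genes was not tested. None of the 41 genes lies on the X or Y chromosome.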

How the data were processed

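Counts per gene came from RNA sequencing of 2 samples of Pax5-/- and 1 of wild-type cells, and groups follow the sample titles. The deposited counts were made by the authors with featureCounts against mm10, per the submitters' processing notes; the sources used here do not give the aligner, the annotation or the strand setting. Each table lists, per the file headers, an Entrez number, a gene length in bases and a whole-number count. Symbols and coordinates are from RefSeq GRCm38.p6 (25275 of 27179 numbers matched).

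Counts were analysed with edgeR 4.0.16 in R 4.3.3: filterByExpr (minimum count 10), TMM factors (1.00, 1.018 and 0.983), glmQLFit and glmQLFTest over 11783 genes, Benjamini-Hochberg adjustment, threshold 0.05. With 3 samples there is 1 residual degree of freedom, moderated with 3.15 prior degrees of freedom, and the lone wild type is assumed to vary like the Pax5-/- pair; the labels do not say whether these came from separate mice, so p-values may measure technical spread. An exact permutation of 2 against 1 samples cannot go below p = 0.333. SE is the coefficient over the square root of F, and 95% intervals use 4.15 degrees of freedom. At this depth 3 counts correspond to 0.441 to 0.468 CPM; counting intervals are exact Clopper-Pearson and cover counting error only. Values for 1 sample against the wild type used log2 CPM with a prior count of 2. The fit was also run on simulated counts with known changes, drawn with a common dispersion for all genes. That simulation gave the wild type the same spread as the Pax5-/- pair, so it cannot test this assumption. DESeq2 1.42.0 and limma 3.58.1 (voom) were alternatives. Sequence sharing was computed from 50-base stretches of GENCODE M21 transcripts.

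All 41 members are accounted for; full values are given for those called, the sensors and Hspa5, with up to 3 called genes (mean of at least 5 CPM) from each wider list and Xbp1, Atf4 and Ddit3. Members and lists were chosen with earlier results of these data known. A pro-B marker is not reported here.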

Additional observations from a re-analysis of the deposited data

How the results depend on the processing

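Calls rest on a spread estimated from the 2 Pax5-/- samples alone. With the biological coefficient of variation set to 0.4 throughout, 1 of the 41 members was called lower in place of 5, 623 genes were called higher and 583 lower in place of 1123 and 1007, and of the other ER pathway genes 2 were called higher and 3 lower in place of 7 and 9. With limma-voom 4 of the other ER pathway genes were called higher. Under RLE scaling, library size only, no filter, a stricter filter (at least 1 CPM in all 3 libraries), DESeq2, the likelihood ratio test and a robust dispersion estimate, these counts stayed within 1.5 times. The call of Creld2 was also lost with library size only, DESeq2, limma-voom and the likelihood ratio test (adjusted p over all alternatives 0.0325 to 1.00), while Ern1 and Eif2ak3 were called in all 9. For 3 near-zero members, none called, the sign changed: with library size only Sec61a1 moved to 0.00098, Sec62 to 0.018 and Ssr1 to 0.034, and with no filter Ssr1 moved to 0.00088. Without 1 Pax5-/- sample, which leaves 1 against 1 and no test, the median log2 fold change of the members ranged from -0.09 to 0.002, and the number lower by a factor of 2 or more, a count added after seeing the data, from 3 to 5. No paired analysis was possible because the labels link no Pax5-/- sample to the wild type. Genes with few counts, such as Sec61g, did not pass the filter of the main fit and have no test there.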

Other observations

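Sequence shared with other genes touches some of the 41 genes more than others. In GENCODE M21, 41% of the 50-base stretches of Sec61b also occur in transcripts of other genes, 20.5% of those of Sec61g, 14.6% of those of Sec61a1 and 13.8% of those of Hsp90b1. For Sec61a1 and Hsp90b1 the sharing genes overlap them in the genome, over 8.16% and 15.7% of their exon bases. For Sec61b and Sec61g the overlap was 0%. For Ern1, Herpud1, Dnajb11, Creld2 and Hspa5 the share was 0%, for Syvn1 1.23% and for Eif2ak3 7.64%, where an antisense gene covers 8.05% of the exon bases. Sec61b had 393 counts in the wild type and 391 and 492 in Pax5-/-.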
